A study of Saccharomyces cerevisiae with 4 samples.

Results

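The genes URM1, UBA4, UBC9 and ULP1 of *Saccharomyces cerevisiae* belong to the pathways of 2 ubiquitin-like modifiers, Urm1 and the SUMO protein Smt3. They were chosen by symbol for these roles, and also because URM1 and UBA4 stood on opposite sides of wild type, so the values below are a description and no test was made on them. They are 4 of the 130 distinct features with values in the deposited tables. All 4 have a listed name and position that fit the R64 annotation.

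Poly(A)-selected RNA was sequenced from BJ2664 as wild type (WT) and from T208, T188 and T186, the strains that carry the mutations mtr3-1, mtr4-1 and dis3mtr (an allele also named rrp44-1 and mtr17-1), with 1 library per genotype. Every culture, WT included, grew in the rich medium YPD at 30 °C to an OD600 of 0.4 and then spent 2 h at 37 °C. MTR3 encodes a ring subunit of the RNA exosome, which degrades and trims RNA from the 3′ end. DIS3 encodes the catalytic subunit of that complex, and MTR4 encodes a helicase that works with it in the nucleus. Each mutant is a strain of its own, so genotype and strain background cannot be told apart. There was no replicate culture, and read depths are unknown. Differences therefore could not be set against replicate error. Values are the authors' normalized values, no source used here says how they were normalized, and levels are compared between libraries for the same gene only.

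Urm1 is a ubiquitin-like protein that is attached to other proteins and also carries sulfur for the thiolation of the wobble uridine in certain transfer RNAs. Uba4 is the enzyme that activates Urm1 at its C-terminal glycine and loads it with sulfur. SUMO is activated by an enzyme pair, passed to Ubc9, the SUMO-conjugating enzyme, and joined to target proteins. Ulp1 is the protease of the nuclear pore that matures the SUMO precursor and removes SUMO from targets, and it is needed for passage from G2 into mitosis. The authors listed URM1 and UBA4 under cell budding, ULP1 under the G2/M transition, and UBC9 under the G2/M transition and mitotic spindle elongation.

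The coding sequence of URM1 is shown whole because it is the shortest gene among the 121 features of certain identity and had the lowest percent of WT of the 4 genes in mtr3-1 and dis3mtr. It has 300 bases and 99 codons before the stop, and the capitals mark the last 2 of these codons, both for glycine, the end of the protein that Uba4 activates. The sequence was looked up by locus tag in RefSeq's R64 build, which is later than the authors' sacCer2.
URM1 coding sequence, plus strand: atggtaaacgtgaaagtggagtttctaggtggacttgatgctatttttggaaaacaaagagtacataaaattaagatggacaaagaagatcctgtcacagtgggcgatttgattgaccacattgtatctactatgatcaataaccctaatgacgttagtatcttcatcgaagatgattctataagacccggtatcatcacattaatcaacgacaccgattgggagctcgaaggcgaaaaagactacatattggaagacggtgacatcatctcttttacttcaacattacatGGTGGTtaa

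The windows around the start codons of URM1 and UBA4, the pair that stood opposite in mtr3-1, are given for comparison. Each runs from 250 bases before the start codon to 50 bases from its first base, on the plus strand of R64. Capitals mark the start codon and any match to a searched motif.
URM1 promoter window: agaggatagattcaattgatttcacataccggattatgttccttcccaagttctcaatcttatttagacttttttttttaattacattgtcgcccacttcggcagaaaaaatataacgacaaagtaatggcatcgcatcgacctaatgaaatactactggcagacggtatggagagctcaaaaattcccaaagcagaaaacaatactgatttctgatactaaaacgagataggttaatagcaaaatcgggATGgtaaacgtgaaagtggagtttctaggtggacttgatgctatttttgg
UBA4 promoter window: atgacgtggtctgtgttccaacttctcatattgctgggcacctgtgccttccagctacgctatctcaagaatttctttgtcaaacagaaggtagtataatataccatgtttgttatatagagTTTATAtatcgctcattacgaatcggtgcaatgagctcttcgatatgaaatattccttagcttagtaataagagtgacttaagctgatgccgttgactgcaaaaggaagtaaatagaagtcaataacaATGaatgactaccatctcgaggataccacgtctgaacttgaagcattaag

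Since all cultures had been warmed, these windows were searched on both strands for a heat shock element (GAANNTTC) and a stress response element (AGGGG). The core promoter motif TATAAA and the proteasome-associated control element (GGTGGCAAA) were searched in the same way. UBA4 has 1 match to the core promoter motif, which begins 128 bases before the start codon. This match reads TTTATA in the window above, so TATAAA lies on the strand opposite the gene. UBC9 has 1 match, which begins 133 bases before its start codon, and its strand was not recorded. URM1 and ULP1 have no match to the core promoter motif on either strand of the window, and no other motif occurred in the window of any of the 4 genes. Of 6001 R64 windows of the same size, 11.8% hold the heat shock element, 21.6% the stress response element, 45.2% the core promoter motif and 1.20% the control element. The first 99 bases of the UBA4 window lie inside the upstream gene ERP5.

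URM1 (YIL008W, chromosome 9, 342 kb, sacCer2) had normalized values of 221 in WT, 129 in mtr3-1, 149 in mtr4-1 and 65.9 in dis3mtr. WT was thus the highest library and dis3mtr the lowest, with the remaining mutants between them and close to each other. As a percent of WT, URM1 was at 58.1% in mtr3-1, 67.3% in mtr4-1 and 29.8% in dis3mtr, or -0.78, -0.57 and -1.75 as log2 ratios. It was the 10th lowest of the 130 features in mtr3-1, the 37th lowest in mtr4-1 and the 2nd lowest in dis3mtr. Of the 4 genes, it was the only one at least 15% below WT, the authors' threshold for a decrease (85% of WT or less), in all 3 mutants. Of all features 12.3% met that condition, and every percent of a gene shares its WT value. This rests on the scaling. After division by ACT1, the actin gene, UBC9 and ULP1 were low in all 3 mutants too. ACT1 itself was at 123%, 133% and 119% of WT in mtr3-1, mtr4-1 and dis3mtr, so dividing by it lowers every percent. The share of all features low in all 3 mutants on that scale was not counted. After removal of a trend on coding length URM1 was no longer low in mtr3-1.

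UBA4 (YHR111W, chromosome 8, 333 to 334 kb) had normalized values of 69.4 in WT, 119.8 in mtr3-1, 35.2 in mtr4-1 and 78.1 in dis3mtr. Here mtr3-1 was the highest library and mtr4-1 the lowest, while WT and dis3mtr lay near each other between them. UBA4 was at 173% of WT in mtr3-1, 50.8% in mtr4-1 and 113% in dis3mtr, with log2 ratios of 0.79, -0.98 and 0.17. It ranked 14th highest in mtr3-1 and 9th lowest in mtr4-1, and in dis3mtr it was the 65th highest of 130, next to the median feature. The authors' threshold for an increase is at least 15% above WT. Features past both thresholds, high in a mutant and low in another, made up 20.0% of the tables, but those that were 1.5-fold high in a mutant and 1.5-fold low in another made up 3.08%, and UBA4 was among them.

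UBC9 (YDL064W, chromosome 4, 337 to 338 kb) had normalized values of 96.3 in WT, 97.2 in mtr3-1, 77.6 in mtr4-1 and 89.3 in dis3mtr. The 4 libraries lay close together, with a highest value 1.25 times the lowest, against a median of 1.74 times over all features. Ranked by that spread from the widest, UBC9 was 122nd of 130. It was at 101% of WT in mtr3-1, 80.6% in mtr4-1 and 92.7% in dis3mtr. Only the value in mtr4-1 was past a threshold, and it lay beside that library's median feature of 81.5%.

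ULP1 (YPL020C, chromosome 16, 512 to 514 kb) had normalized values of 25.8 in WT, 23.7 in mtr3-1, 17.6 in mtr4-1 and 16.9 in dis3mtr. WT and mtr3-1 formed the higher pair and mtr4-1 and dis3mtr the lower one. Its percents of WT were 92.0%, 68.2% and 65.4% in mtr3-1, mtr4-1 and dis3mtr. In dis3mtr it was the 15th lowest of 130 features, and in mtr4-1 the 39th lowest. The spread between its highest and lowest library was 1.53 times, below the median of all features, whereas URM1 and UBA4 spread 3.36 and 3.40 times and ranked 15th and 12th from the widest.

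**Figure D1:**
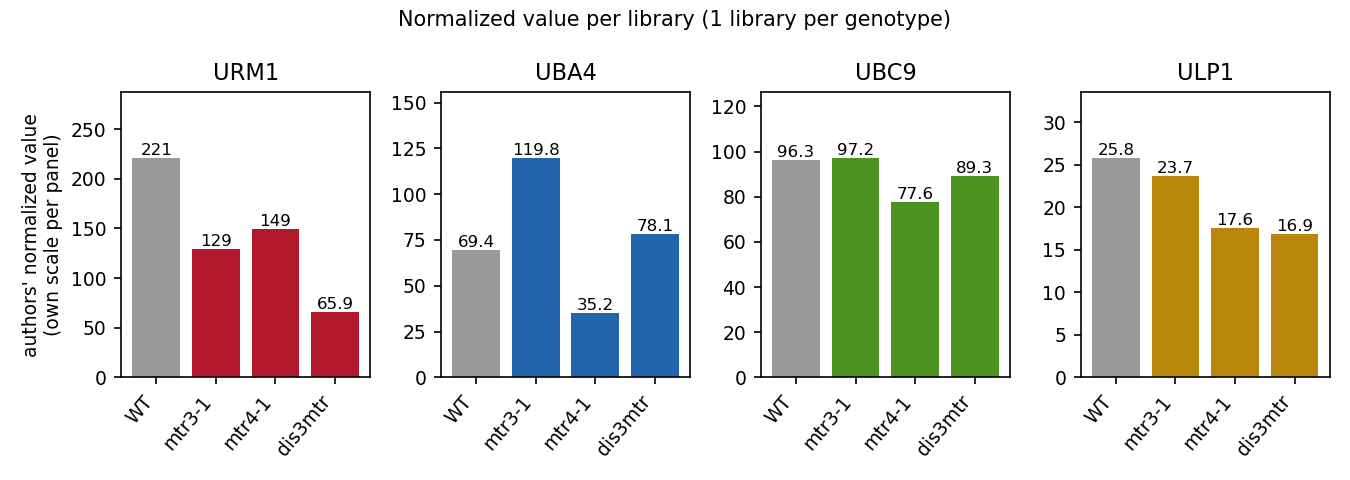
Bars give the authors' normalized value (vertical axis, from 0, a scale of its own in each panel) of URM1, UBA4, UBC9 and ULP1 in the 4 libraries, WT in grey, 1 library per genotype and so no error bars. URM1 is highest in WT at 221 and lowest in dis3mtr at 65.9, UBA4 is highest in mtr3-1 at 119.8 and lowest in mtr4-1 at 35.2, and UBC9 is nearly level.

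In mtr3-1 the Urm1 pathway genes stood on opposite sides of WT and the SUMO pathway genes stayed inside the thresholds. UBA4 was the 1 gene of the 4 past the threshold for an increase, where 27.7% of all features were, and URM1 the 1 gene past that for a decrease, where 33.1% were. The same genes passed a 1.5-fold change, which 12.3% of features reached upward and 16.9% downward. In this library the middle feature stood at 99.2% of WT. Dividing by it left 27.7% of features high and 32.3% low and gave 174% for UBA4 and 58.6% for URM1. The calls did not hold under every scaling. Removal of the trend on coding length put URM1 at 91.8%, no longer low, and UBC9 at 143%, high. Division by ACT1 made UBC9 low at 81.7% and ULP1 low at 74.5%, and put UBA4 at 139.9%, high but under 1.5-fold. ACT1 itself stood at 123% of WT in this library. UBC9 as deposited, at 101%, lay above the middle feature, so that feature was low on the ACT1 scale too. The shares of all features past the thresholds after division by ACT1 or trend removal were not counted.

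In mtr4-1 all 4 genes were at 85% of WT or less, and so were 57.7% of all features, while 14.6% were past the threshold for an increase and none of the 4 was. UBA4 was the lowest of the 4 and the only one low by 1.5-fold, a change seen in 26.2% of features downward and 7.69% upward. The mid-ranked feature of this library stood at 81.5% of WT, or -0.30 on the log2 scale. After division by it, UBA4 was at 62.3%, URM1 at 82.6%, ULP1 at 83.7% and UBC9 at 98.9%, so UBC9 was no longer low. On that scale 33.8% of all features were low and 33.1% high. UBC9 was also not low after removal of the length trend, at 88.0%. After division by ACT1 all 4 genes were low by 1.5-fold, with UBA4 at 38.2% still the lowest and UBC9 at 60.6% the highest. ACT1 itself stood at 133% of WT in this library, so dividing by it lowered the percent of every feature. Any feature at 85% of WT or less as deposited was low by 1.5-fold once divided by ACT1. At least 57.7% of all features were therefore low by 1.5-fold on that scale, so the calls of the 4 genes did not set them apart. The exact share was not counted.

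In dis3mtr URM1 and ULP1 were low, and UBA4 and UBC9 were inside the thresholds. Of all features 23.1% were past the threshold for a decrease and 46.9% past that for an increase, so this library had more high than low values, and as deposited none of the 4 genes was among the high ones. URM1 and ULP1 also passed a 1.5-fold decrease, which 13.8% of features did, against 28.5% for a 1.5-fold increase. The library's median stood at 112% of WT, or 0.17 on the log2 scale. After division by it URM1 was at 26.5%, ULP1 at 58.2%, UBC9 at 82.4% and UBA4 at 100.1%, with 31.5% of features low and 36.2% high, and UBC9 then counted as low. Division by ACT1 also made UBC9 low, at 78.0%. After removal of the trend on coding length, by contrast, UBC9 was high at 142% and UBA4 at 119%, and URM1 was at 53.7%, still low. ACT1 itself stood at 119% of WT in this library, so dividing by it lowered every percent. Shares of all features past the thresholds on the ACT1 and trend scales were not counted.

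**Figure D2:**
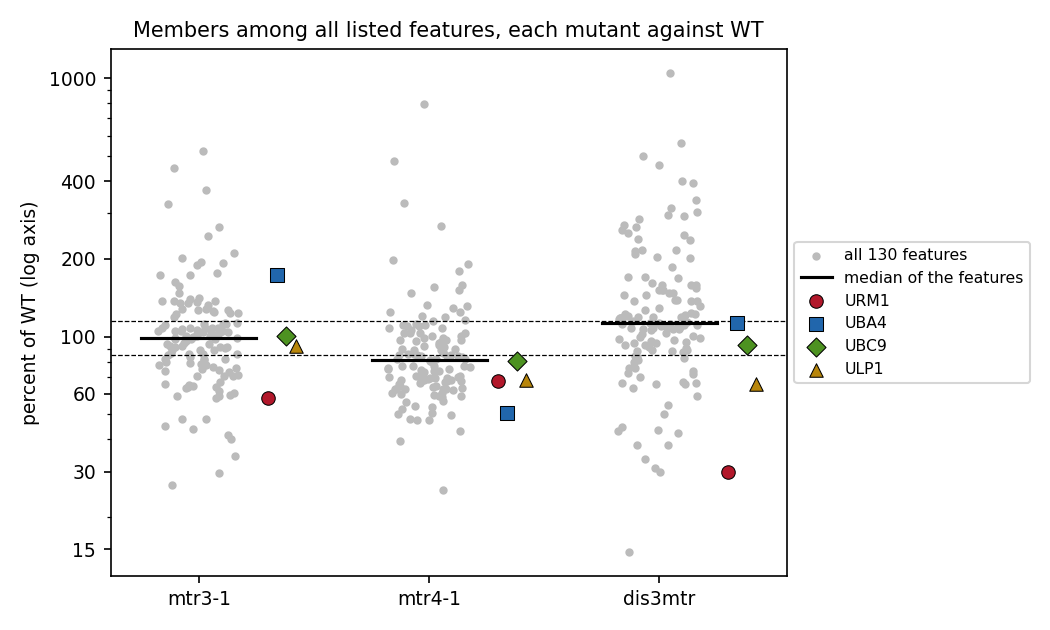
Grey points are the 130 features as a percent of WT (vertical log axis) in each mutant, black bars are their medians, dashed lines are the authors' thresholds at 15% below and above WT, and coloured symbols are the 4 genes. URM1 lies at 58.1%, 67.3% and 29.8% from left to right, and UBA4 lies above the thresholds in mtr3-1 at 173% and below them in mtr4-1 at 50.8%.

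Direct comparison of the mutants leaves out the WT library that all percents share. The URM1 value in dis3mtr was 0.512 times that in mtr3-1 and 0.442 times that in mtr4-1, the 5th and the 2nd lowest of these ratios among 130 features. Between mtr3-1 and mtr4-1 the URM1 ratio was 0.864, just inside a margin of 15% below. The median ratio of all features was 1.23 for dis3mtr to mtr3-1, 1.40 for dis3mtr to mtr4-1 and 1.17 for mtr3-1 to mtr4-1. Divided by these, the URM1 ratios were 0.417, 0.316 and 0.741, so the last was then low.

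For UBA4 the ratio of mtr3-1 to mtr4-1 was 3.40, the highest of the 130 features, and 2.92 once scaled to the median ratio. The dis3mtr value was 0.652 times that of mtr3-1 and 2.22 times that of mtr4-1. The order of the UBA4 levels, mtr3-1 above dis3mtr above mtr4-1, therefore differed from that of URM1, mtr4-1 above mtr3-1 above dis3mtr. With the length trend removed, the percents of URM1 ran mtr3-1 above mtr4-1 above dis3mtr, which still differed from UBA4. UBC9 had ratios of 1.25 for mtr3-1 to mtr4-1, 0.919 for dis3mtr to mtr3-1 and 1.151 for dis3mtr to mtr4-1. The last one turned to 0.821 after division by the median ratio. ULP1 had ratios of 1.35, 0.711 and 0.960 in the same order. The last one was 0.685 after division by the median ratio and 1.07 after division by ACT1, so its side depended on the scaling.

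With the same margin of 15% either way, UBA4, UBC9 and ULP1 were higher in mtr3-1 than in mtr4-1, as were 53.8% of features, and 13.8% were lower. UBA4, URM1 and ULP1 were lower in dis3mtr than in mtr3-1, as were 19.2% of features, and 55.4% were higher. Against mtr4-1, dis3mtr was higher for UBA4 and UBC9 and for 74.6% of features, and lower for URM1 and for 11.5%.

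A ratio of 2 genes within a library is not altered by a single scaling factor for that library, but a dependence on coding length can alter it. The URM1 value was 3.19 times the UBA4 value in WT, 1.07 times in mtr3-1, 4.23 times in mtr4-1 and 0.843 times in dis3mtr. No source used here says whether values were divided by length, so only the change of these ratios between libraries is read. Relative to WT the ratio was 0.337 in mtr3-1, 1.32 in mtr4-1 and 0.264 in dis3mtr. The URM1 to UBA4 ratio was thus 2.97-fold below WT in mtr3-1, 3.78-fold below in dis3mtr and 1.32-fold above in mtr4-1. This pair was chosen for its opposite moves, and these folds were not set against those of all gene pairs. After removal of the length trend the ratio was 0.482 of WT in mtr3-1, 0.452 in dis3mtr and 1.47 in mtr4-1. The difference in dis3mtr was then much smaller, and each ratio kept its side. In mtr3-1 both genes stood away from WT, on opposite sides, whereas in dis3mtr UBA4 was inside the thresholds and URM1 was far below WT. The ratio of UBC9 to ULP1 was 3.74 in WT and 1.10, 1.18 and 1.42 relative to WT in mtr3-1, mtr4-1 and dis3mtr.

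**Figure D3:**
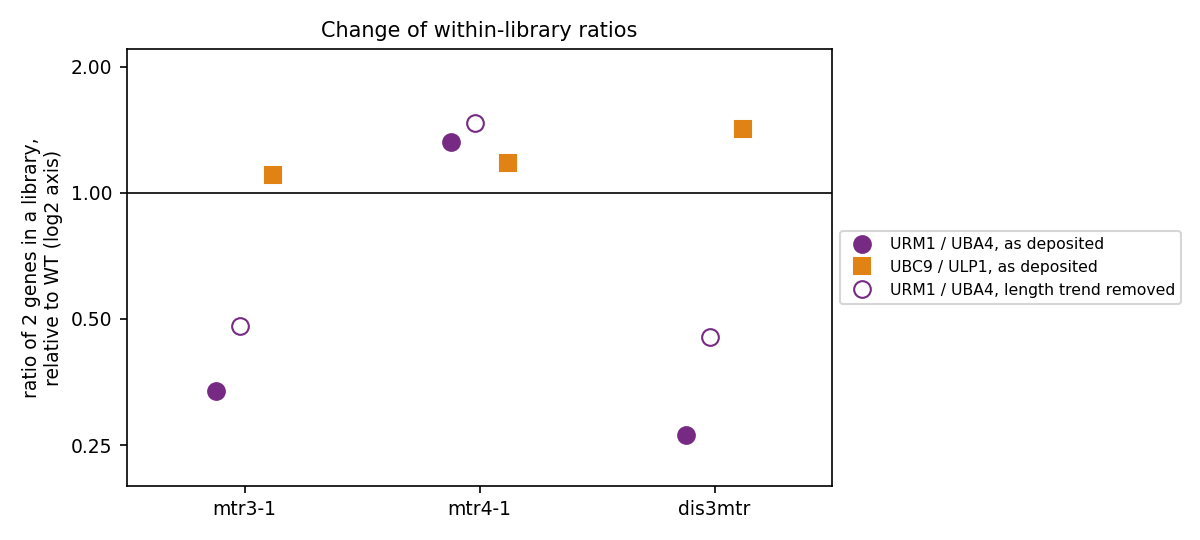
Filled points are the ratio of URM1 to UBA4 (circles) or of UBC9 to ULP1 (squares) within each mutant library, relative to the same ratio in WT (vertical log2 axis, 1 is WT), and open circles are the URM1 to UBA4 ratio after removal of the trend on coding length. The URM1 to UBA4 ratio lies at 0.337 in mtr3-1 and 0.264 in dis3mtr, but at 1.32 in mtr4-1.

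Coding length differed widely among the 4 genes, and percents of WT varied with it over the tables. URM1 has 300 coding bases, UBC9 474, UBA4 1323 and ULP1 1866, against a median of 1641. The 12 certain features of at most 500 coding bases, which include URM1 and UBC9, had a median of 64.5% of WT in mtr3-1, 77.1% in mtr4-1 and 56.5% in dis3mtr. Over the 109 longer features the medians were 101.5% in mtr3-1 and 81.9% in mtr4-1, and in dis3mtr the median lay close to the authors' threshold for an increase. In dis3mtr 8 of the 12 short features and 19 of the 109 longer ones were at 85% or less, in mtr3-1 8 and 32, and in mtr4-1 9 and 61.

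After removal of a straight-line trend of log2 ratio on log2 coding length, URM1 was at 91.8% in mtr3-1, inside the thresholds. In mtr4-1 it was then at 75.8% and in dis3mtr at 53.7%, both still low. UBA4 kept its opposite sides under the same removal, with 191% in mtr3-1 and 51.6% in mtr4-1. UBC9, the other short gene, was then high in mtr3-1 and dis3mtr. The share of all features past the thresholds after this removal was not counted.

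**Figure D4:**
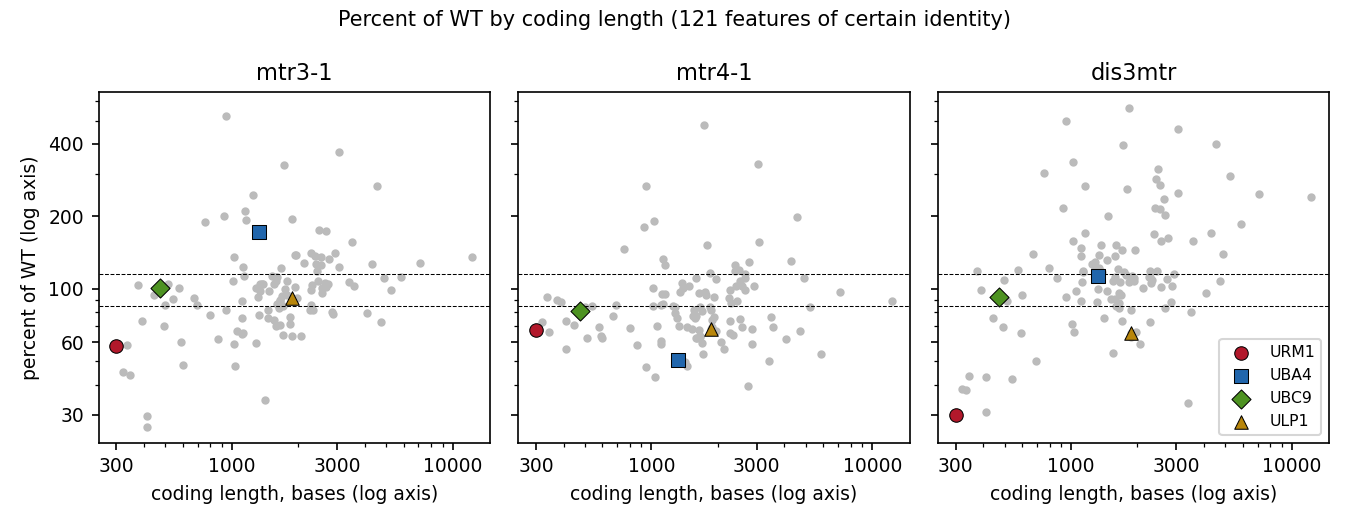
Each grey point is a feature of certain identity, with its coding length in bases (horizontal log axis) and its percent of WT (vertical log axis) in each mutant, and coloured symbols are the 4 genes. URM1, the shortest at 300 bases, lies among other short features with low percents in mtr3-1 and dis3mtr, while UBC9 at 474 bases lies at 101% and 92.7% there.

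The features whose percents over the 3 mutants were most like those of URM1, by the root mean square difference of log2 ratio, were RBL2 (0.30), GIM4 (0.34) and YKE2 (0.39). RBL2 encodes a β-tubulin-binding protein, and GIM4 and YKE2 encode subunits of the prefoldin chaperone. All 3 stand in the authors' table of tubulin complex assembly chaperones and are short, with 321, 336 and 345 coding bases. RBL2 was at 45.0%, 72.9% and 38.2% of WT in mtr3-1, mtr4-1 and dis3mtr. Those most like UBA4 were BUD14 (0.28), a protein that acts in bud site selection, CDC23 (0.28), a subunit of the anaphase-promoting complex, and KEL1 (0.45), a kelch-repeat protein. CDC23 was at 195%, 69.7% and 113% in the same order. UBC9 was nearest to CCT5 (0.06), a subunit of the cytosolic chaperonin that folds tubulin and actin, CLB5 (0.10), an S-phase cyclin, and MPS1 (0.14), a kinase of the spindle pole and checkpoint. For ULP1 they were SKM1 (0.02), a kinase of the PAK family, RSC4 (0.08), a subunit of the chromatin remodeler RSC, and RTS1 (0.11), a regulatory subunit of phosphatase 2A. The pair of Urm1 pathway genes, chosen for its opposite moves, differed from each other by 1.45, and UBC9 and ULP1 by 0.33. Among 120 other features of certain identity, UBA4 ranked 85th nearest to URM1, and URM1 112th nearest to UBA4. ULP1 ranked 37th nearest to UBC9, and UBC9 15th nearest to ULP1.

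The sequences around the genes bear on what reads each value could hold. Reads were 36 bases long and each library carried a barcode of 3 bases. Every word of 36 bases, and every word of 33, in the 4 gene spans occurs at a single place in R64. For URM1 these were 265 and 268 words and for ULP1 1831 and 1834. No annotated gene overlaps any of the 4. The nearest are YHR112C, 132 bases past UBA4 and on the opposite strand, ERP5, 151 bases before UBA4, and NAS2, 158 bases past URM1 on the opposite strand. No source used here says whether the reads kept strand, and the neighbours have no values in the tables. UBC9 is the only one of the 4 with an intron, of 110 bases, and the values do not separate spliced from unspliced RNA.

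Within the authors' tables, URM1 had the 2nd lowest and UBA4 the highest of 8 percents for cell budding in mtr3-1. In mtr4-1 URM1 was the 5th lowest and UBA4 the 4th lowest, and in dis3mtr they were the 2nd and the 7th lowest. In dis3mtr ULP1 had the 3rd lowest of 25 for the G2/M transition and UBC9 the 9th lowest. UBC9 was also the 4th lowest of 22 for spindle elongation, where the median was 120.4%, though at 92.7% it was inside the thresholds. The authors' deposited table gives averages of 101%, 59.7% and 91.9% for cell budding in mtr3-1, mtr4-1 and dis3mtr. Without URM1 and UBA4 the recomputed means were 96.0%, 59.9% and 98.8%. For mtr4-1 the authors' deposited table counts 7 decreased and 2 unchanged genes in that term, a sum of 9, where 8 are listed and a recount gave 7 and 1. The authors' counts also sum to 29 for the G2/M transition and 23 for spindle elongation, where 25 and 22 genes have values.

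Most of the machinery around the 4 genes is not analysed here. Of 43 genes in lists of the Urm1 pathway, wobble uridine modification, SUMO, other ubiquitin-like modifiers and ubiquitin enzymes, 5 are listed in the tables and 4 have values, which are the genes above. The fifth, CDC34, which encodes a ubiquitin-conjugating enzyme, is listed with no values. The Urm1 list has values for 2 of 7 genes and the SUMO list for 2 of 12, so the level of SMT3 and of the other SUMO enzymes beside UBC9 and ULP1 is not analysed here.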

How the data were processed

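RNA of 4 libraries, 1 per genotype, was measured by sequencing. Alignment with Bowtie (no version) to sacCer2 is named in the submitters' processing notes. The authors deposited a normalized signal per gene and library, per the file headers, and a percent of WT signal. No source used here says how values were normalized. Deposited percents equalled 100 times the mutant over the WT value within 1.1e-13. The 16 tables hold 190 entries, of which 175 have values, forming 130 distinct features. For 9 of these the name and position disagree with R64 (tolerance 1 kb), the ORF is not in R64, or another ORF has the same values. Genes were called at the authors' thresholds, at least 15% above or below WT.

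Calculations used Python 3.11.15, numpy 2.4.6 and pandas 2.3.3. The trend removal was run on simulated data with lengths spread evenly on a log scale. Its accuracy for the few short features of these tables was therefore not tested. Sequences came from RefSeq's R64. With 1 library per genotype no test was made. Likeness to a gene names the 3 nearest features of certain identity. The members and lists were chosen with earlier results of these data known. Alternatives were division by the median or by ACT1, removal of the length trend, a 1.5-fold threshold, counts over every entry, and certain identities only.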

Additional observations from a re-analysis of the deposited data

Results flagged for a closer look

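UBA4 was past the authors' thresholds in opposite directions in 2 mutants, at 173% of WT in mtr3-1 but 50.8% in mtr4-1, which differ 3.40-fold. No test of this difference exists with 1 library each, so it was not tested. UBA4 was also chosen partly for its moves in these same values. Of all features, 20.0% were past the thresholds in opposite directions in 2 mutants, and 3.08% were at 1.5-fold.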

How the results depend on the processing

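No paired analysis was possible because each genotype has 1 library, and for the same reason no library could be left out. Of the 12 percents of WT, 10 kept their call after division by the median feature, 9 after division by ACT1 and 7 after removal of the length trend. UBC9 in mtr4-1 was at 98.9% and 88.0% (median, trend), no longer low. In dis3mtr it was at 82.4% and 78.0% (median, ACT1), now low, and at 142% (trend), now high. In mtr3-1 UBC9 was at 81.7% (ACT1) and 143% (trend). ULP1 in mtr3-1 was at 74.5% (ACT1), now low. URM1 in mtr3-1 was at 91.8% and UBA4 in dis3mtr at 119% after trend removal. The cause of these shifts was not tested, and shares of all features past the thresholds on the ACT1 and trend scales were not counted.

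Division by ACT1 left the calls of all 12 ratios between mutants, though ULP1 for dis3mtr to mtr4-1, inside the margin, moved from 0.960 to 1.07. Division by the median ratio reversed UBC9 for dis3mtr to mtr4-1 (0.821), ended its call for mtr3-1 to mtr4-1 (1.07) and made its ratio low for dis3mtr to mtr3-1 (0.749). It also made URM1 for mtr3-1 to mtr4-1 (0.741) and ULP1 for dis3mtr to mtr4-1 (0.685) low. At 1.5-fold 1 of the 4 genes was low in mtr4-1 instead of 4, and 26.2% of all features instead of 57.7%. Counting every entry gave 56 high entries in mtr3-1 against 36 features, or 32% of entries against 27.7% of features. The URM1 to UBA4 ratio kept its side under trend removal, an alternative chosen after seeing the data. No depth is known, so no counting error could be given.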
